A study of Homo sapiens with 7 samples.

Results

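At 540 sites on chromosomes 1 to 22 of BJAB cells, a peak of O-GlcNAcase (OGA) was overlapped by a TRIM28 peak and by no peak of RNA polymerase II (Pol II), SPT5 or the O-GlcNAc sugar. These sites were 21.6% of the 2503 OGA peaks (95% Wilson interval 20.0% to 23.2%). They were chosen by the presence or absence of peaks, with 1 bp as the smallest overlap, so their make-up is a description and not a finding. BJAB, an established line of human B cells, came from a Burkitt's lymphoma; the labels give its passages as multiple and name no treatment. Chromatin immunoprecipitation followed by sequencing (ChIP-seq) gave 1 library and 1 peak list for each of 5 targets: TRIM28, OGA, the O-GlcNAc sugar (antibody RL2), Pol II and SPT5. The mouse and rabbit IgG libraries were not analysed here. No target had a replicate, so no test between conditions was possible. Intervals below treat peaks as independent and cover counting error only. The reads behind each list are unknown, and a site without a peak of some target may carry that target below the threshold of its list.

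OGA is the enzyme that takes the sugar O-GlcNAc off serines and threonines of proteins in nucleus and cytoplasm, where the transferase OGT puts it on. TRIM28, also named KAP1 or TIF1b, is a co-repressor. KRAB zinc finger proteins bring it to DNA, where it gathers factors that set repressive chromatin, among them the histone methyltransferase SETDB1 and HP1 proteins. It is known for silencing retroelements, and it also binds zinc finger genes. SPT5 belongs to DSIF, which acts with Pol II in promoter-proximal pausing and in elongation. The series title places OGA in that setting, and the sites here were chosen for having no peak of SPT5 or Pol II.

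Each OGA peak with TRIM28 alone lay on a single TRIM28 peak, and 540 different TRIM28 peaks carried them. The pairs were closely aligned, but the overlap rule itself places the summits near each other, so these values are a description. The OGA summit, the highest point of the peak, fell inside the TRIM28 peak at 534 of the 540 sites (98.9%), and 378 OGA peaks (70.0%) lay wholly inside it. The median distance between the summits was 37 bp (quartiles 15 and 71.2 bp), and 60.7% lay within 50 bp of each other (interval 56.6% to 64.8%). OGA peaks with SPT5 and TRIM28 but without Pol II or O-GlcNAc had a median of 38 bp, with 58.8% within 50 bp (54.8% to 62.8%), so these classes were not apart. At OGA peaks overlapped by all 4 other targets the median was 53 bp and 48.8% lay within 50 bp (44.5% to 53.2%). There the median widths were larger, at 254 bp for OGA and 505 bp for TRIM28. Summit distances were not compared at like width. In the class with TRIM28 alone, OGA peaks were narrower than TRIM28 peaks at most sites, with median widths of 228 and 368 bp. Of the 540, 52 were wider than their TRIM28 peak.

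The height of a peak is given here as the authors' fold enrichment, a ratio over a background whose source is unknown. It is compared only within the list of 1 target. OGA peaks with TRIM28 alone had a median OGA fold enrichment of 3.86 (interval 3.70 to 3.99, quartiles 3.12 and 4.67). That was above the 3.35 (3.25 to 3.44) of the 583 OGA peaks with SPT5 and TRIM28, the 3.02 (2.94 to 3.07) of the 584 that also had Pol II, and the 3.20 (3.09 to 3.33) of the 506 with all 4 other targets. It was not apart from the 117 OGA peaks that no other list overlapped, at 4.06 (3.66 to 4.43). On another scale of the same list the class was apart from only 1 of these classes: its median −log10 q, which measures how far a peak stands above its background statistically, was 6.76 (6.27 to 7.36), against 5.22 (4.89 to 5.44) with Pol II, SPT5 and TRIM28, 6.74 (6.29 to 6.95) with SPT5 and TRIM28 and 6.72 (6.23 to 7.49) with all 4 other targets.

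The share of TRIM28 alone among OGA peaks changed with OGA fold enrichment. Shares by −log10 q were not examined. In the lowest decile of OGA peaks by fold enrichment it was 10.4% (interval 7.17% to 14.7%), and it reached 40.0% in the ninth (34.1% to 46.2%). In the highest decile, at folds of 5.49 and more, it was 23.5% (18.7% to 29.1%), and there 33.1% of the peaks (27.5% to 39.1%) had all 4 other targets. The class with SPT5 and TRIM28 stayed between 20.7% and 28.0% over the 9 lower deciles and stood at 9.96% in the highest. By fold enrichment, the highest OGA peaks of the cell line thus held a smaller share of TRIM28-alone sites than those just below them.

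**Figure D1:**
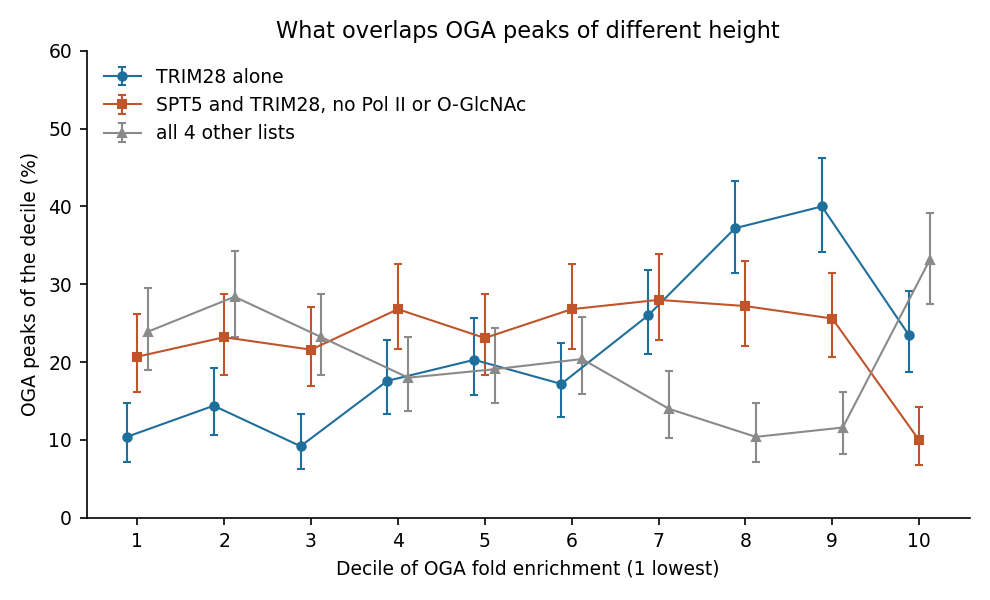
Share of OGA peaks (y axis, %) with TRIM28 alone, with SPT5 and TRIM28, or with all 4 other targets, by decile of OGA fold enrichment (x axis, 1 lowest); points are shares and bars 95% Wilson intervals. TRIM28 alone stands at 10.4% in decile 1, at 40.0% in decile 9 and at 23.5% in decile 10, where all 4 other targets reach 33.1%.

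The 5 highest OGA peaks of the class lay on TRIM28 peaks of varied height, above between 21.4% and 87.2% of the TRIM28 list. Coordinates are those of hg19 as deposited. The highest, chr16:12416527-12417405, had an OGA fold enrichment of 20.9 on a TRIM28 peak of 2.74, the lowest of the 5. It was 66.5 kb from the nearest SPT5 peak and 346 kb from the nearest Pol II peak. At chr4:100730536-100730962 the OGA fold was 17.7 and the TRIM28 fold 3.15, with SPT5 6.68 kb and Pol II 6.69 kb away. At chr14:94812273-94812963 the folds were 17.1 for OGA and 3.94 for TRIM28. TRIM28 was higher at the remaining sites. At chr2:239990927-239991677 they were 15.8 and 5.86, and this site lay 188 kb from SPT5 and 312 kb from Pol II. At chr1:214619253-214619716 they were 13.4 and 4.65, with SPT5 at 5.11 kb. A second OGA peak lay within 1 kb of 3 of these 5 sites: at 0.823 kb on chromosome 16, 0.0620 kb on chromosome 2 and 0.519 kb on chromosome 1.

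The 3 highest TRIM28 peaks of the class carried OGA peaks between the class median of 3.86 and its upper quartile of 4.67. The TRIM28 peak at chr16:992247-993044 had a TRIM28 fold of 26.5, above 99.9% of the TRIM28 list, and an OGA fold of 4.09. Those at chr10:115713310-115714014 and chr16:58971517-58972048 had TRIM28 folds of 21.3 and 18.5 and OGA folds of 4.16 and 4.57. Over the whole class, 16 sites (2.96%) had an OGA fold above 8, with TRIM28 folds of 2.74 to 7.01 and a median of 4.20, near the 4.16 of the class. A TRIM28 fold above 8 was found at 34 sites (6.30%), with OGA folds of 2.62 to 5.90 and a median of 4.25. The cut of 8 was chosen after the values were seen. With shares this small, the absence of a site above 8 in both is not a result. Across the 540 sites Spearman's rho between the folds was 0.347, a description over peaks of the same 2 libraries. It was 0.423 at OGA peaks with SPT5 and TRIM28 and -0.0155 at those with all 4 other targets.

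**Figure D2:**
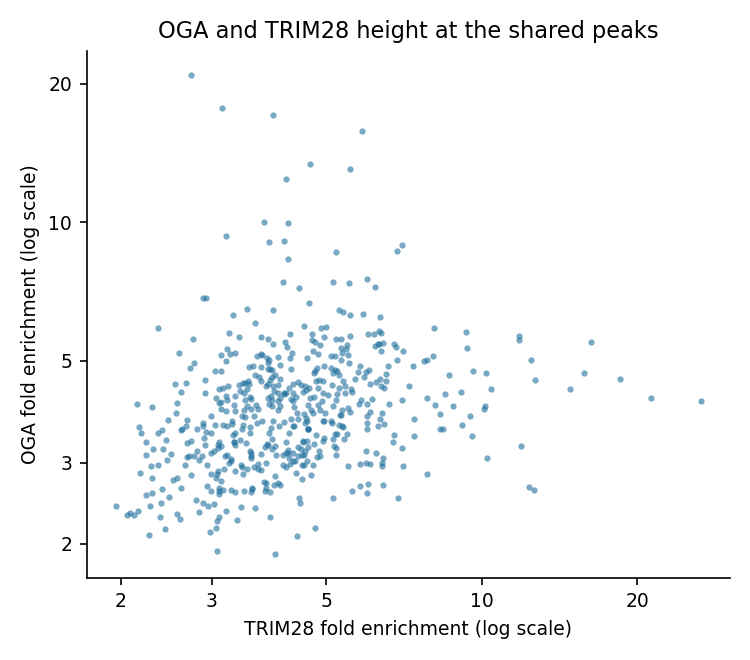
OGA fold enrichment (y axis) against TRIM28 fold enrichment (x axis), both on log scales, with 1 point for each of the 540 OGA peaks with TRIM28 alone. Most points lie near the medians of 3.86 for OGA and 4.16 for TRIM28, with 16 sites above 8 in OGA and 34 above 8 in TRIM28.

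To see what set these sites apart among TRIM28 sites, TRIM28 peaks free of Pol II, SPT5 and O-GlcNAc were divided by overlap with OGA. They numbered 24392, which was 55.4% of the 43998 TRIM28 peaks, and an OGA peak overlapped 532 of them, or 2.18% (interval 2.01% to 2.37%). Over all TRIM28 peaks the share with OGA was 5.14%, and over TRIM28 peaks with at least 1 of the 3 other targets it was 8.81% (8.42% to 9.22%). OGA was thus less frequent at TRIM28 peaks without these targets than at TRIM28 peaks with them. These shares were not compared at like width of the TRIM28 peak. Of the 532, 530 carried a member of the class. The TRIM28 peaks of another 10 members reached an SPT5, Pol II or O-GlcNAc peak beyond the OGA peak and were left out of this comparison.

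TRIM28 peaks with OGA were wider than those without, but not apart in fold enrichment. Their median width was 365 bp (interval 349 to 379 bp, quartiles 287 and 466 bp) against 279 bp (277 to 281 bp, quartiles 226 and 353 bp) for the 23860 without OGA, a ratio of 1.31. Peaks wider than 500 bp made up 19.7% of those with OGA (16.6% to 23.3%) and 5.50% of those without (5.22% to 5.80%). From the narrowest to the widest decile of these TRIM28 peaks, the share with OGA went from 0.656% (0.404% to 1.06%) to 6.15% (5.26% to 7.17%). A wider peak offers more bases to overlap, so part of this follows from the rule. Counting only the sites where the OGA summit lay within 50 bp of the TRIM28 summit, a measure added after the data were seen, the ratio of widths was 1.25 (1.20 to 1.32).

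The median TRIM28 fold enrichment was 4.15 with OGA (3.96 to 4.31) and 4.04 without (4.03 to 4.06), and the intervals overlapped. With a −log10 q of at least 5 asked of every list, the ratio of these medians turned from 1.03 to 0.914. The share with OGA stayed between 1.72% and 3.08% over the 9 lower deciles of TRIM28 fold enrichment and was 1.31% (0.931% to 1.85%) in the highest. Of the 1000 highest TRIM28-alone peaks, 13 carried OGA. The interval of that share, 0.761% to 2.21%, overlapped the interval over all TRIM28-alone peaks, 2.01% to 2.37%. At like width, OGA went with lower TRIM28 peaks in 8 of 10 deciles of width. In the widest decile the median TRIM28 fold was 4.95 with OGA and 6.68 without. Averaged over 10 strata of width, the TRIM28 fold with OGA was 0.829 times that without. Without regard to width, the −log10 q of the TRIM28 peak ran the other way, with a median of 11.6 with OGA and 7.26 without. It was higher with OGA in 10 of 10 deciles of TRIM28 fold enrichment. Across deciles of width it was higher with OGA in 7 of 10 but lower in the 3 widest, at 16.6 against 23.2 in the widest. Averaged over 10 strata of width, the −log10 q with OGA was 0.914 times that without. With the peaks divided into 3 groups of equal number by height, and 3 by width, OGA was most frequent at wide peaks of low or middle height, at 5.47% (4.45% to 6.71%) and 5.82% (4.84% to 6.97%). At wide peaks of the highest group it was 2.97% (2.52% to 3.49%), and at high, narrow peaks 0.378% (3 of 793, 0.129% to 1.11%).

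**Figure D3:**
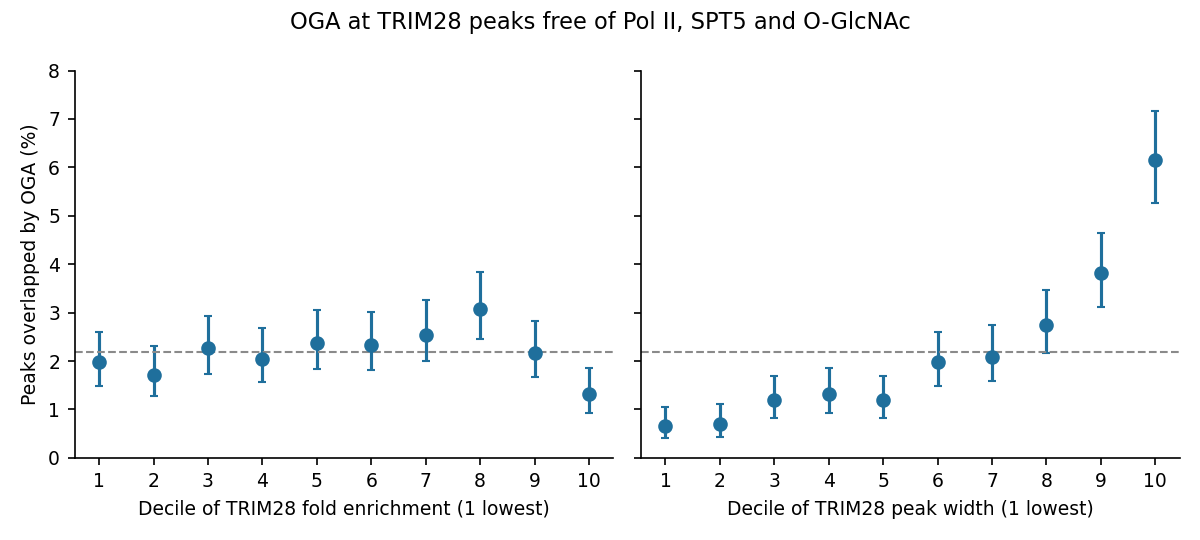
Share of TRIM28 peaks free of Pol II, SPT5 and O-GlcNAc that an OGA peak overlapped (y axis, %), by decile of TRIM28 fold enrichment (left) and of TRIM28 peak width (right); bars are 95% Wilson intervals and the dashed line is the share over all these peaks, 2.18%. The share goes from 0.656% to 6.15% over the deciles of width and is lowest, at 1.31%, in the highest decile of fold enrichment.

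The sites with OGA lay farther from Pol II than TRIM28-alone peaks without it. The rule removes peaks that touch Pol II or SPT5 from both groups, so distances start above an overlap. The median distance between peak edges was 65.7 kb to Pol II with OGA (interval 58.6 to 78.4 kb) and 46.2 kb without (44.9 to 47.5 kb). A Pol II peak lay within 5 kb of 5.08% of those with OGA (3.51% to 7.28%) and of 11.5% of those without (11.1% to 11.9%). Within 50 kb the shares were 43.8% (39.6% to 48.0%) and 51.7% (51.1% to 52.3%). The distance was greater with OGA in 9 of 10 deciles of TRIM28 fold enrichment and in 8 of 10 deciles of width. With a −log10 q of at least 5 asked of every list, the ratio of the median distances went from 1.42 to 1.27 and its interval (0.983 to 1.54) was no longer apart from 1.

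For SPT5 the difference with OGA ran the same way. The SPT5 list is longer than the Pol II list, at 54885 against 19336 peaks, so distances to them are not compared with each other. The median distance to SPT5 was 31.6 kb with OGA (27.3 to 41.1 kb) and 23.9 kb without (23.2 to 24.6 kb). An SPT5 peak lay within 5 kb of 16.5% (13.6% to 19.9%) against 22.6% (22.1% to 23.1%), and within 1 kb of 5.83% (4.14% to 8.15%) against 8.14% (7.80% to 8.50%), where the intervals overlapped. The distance was greater with OGA in 7 of 10 deciles of TRIM28 fold enrichment and smaller in 3. With a −log10 q of at least 5 asked of the OGA and TRIM28 lists, the ratio went from 1.33 to 1.20, with an interval of 0.952 to 1.59. Sites more than 100 kb from both Pol II and SPT5 made up 26.9% with OGA (23.3% to 30.8%) and 21.6% without (21.1% to 22.1%). The O-GlcNAc mark, the substrate side of the enzyme, was not apart in median distance, at 111 kb with OGA (90.8 to 133 kb) and 97.3 kb without (94.7 to 99.5 kb). Within 5 kb an O-GlcNAc peak was found at 2.26% (1.29% to 3.90%) with OGA and 4.49% (4.24% to 4.76%) without.

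Other TRIM28 peaks, in contrast, were nearer to the sites with OGA. The median distance to the next TRIM28 peak was 6.63 kb with OGA (5.16 to 8.34 kb) and 10.8 kb without (10.5 to 11.1 kb), and it was shorter with OGA in 10 of 10 deciles of TRIM28 fold enrichment, 7 of 10 deciles of width and 8 of 10 deciles of −log10 q. Another TRIM28 peak lay within 1 kb of 20.1% (16.9% to 23.7%) against 12.9% (12.5% to 13.3%). Where the next TRIM28 peak lay within 10 kb, it was itself free of Pol II, SPT5 and O-GlcNAc at 77.9% of the 312 sites with OGA (73.0% to 82.1%) and at 64.9% of the 11554 without (64.0% to 65.7%). That neighbour carried OGA at 12.2% (9.0% to 16.3%) and 5.79% (5.38% to 6.23%). Within 50 kb on either side there were on average 4.03 other TRIM28 peaks with OGA and 3.76 without, beside 3.32 and 4.18 SPT5 peaks and 1.03 and 1.39 Pol II peaks.

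**Figure D4:**
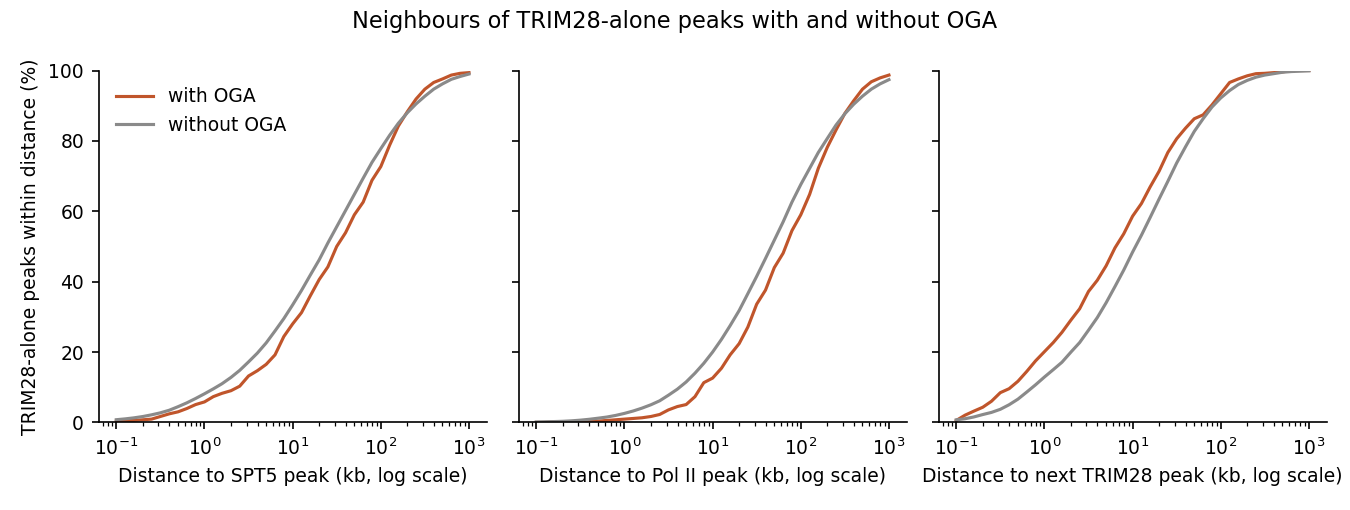
Cumulative share (y axis, %) of TRIM28-alone peaks with OGA (n = 532) and without (n = 23860) that have an SPT5, a Pol II or another TRIM28 peak within a given distance (x axis, kb, log scale). The curves with OGA lie below for Pol II, at 12.6% against 20.0% within 10 kb, and above for TRIM28, at 58.6% against 48.4%.

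Among OGA peaks with TRIM28, those with TRIM28 alone lay farthest from the next OGA peak. The next OGA peak was a median of 221 kb away (163 to 275 kb), against 82.6 kb (68.5 to 106 kb) for OGA peaks with SPT5 and TRIM28 and 135 kb (115 to 168 kb) for those with all 4 other targets. Another OGA peak lay within 100 kb of 34.1% (30.2% to 38.2%), 53.2% (49.1% to 57.2%) and 43.3% (39.0% to 47.6%) of these classes. Within 10 kb the shares were 12.0% (9.56% to 15.1%), 19.6% (16.5% to 23%) and 10.5% (8.10% to 13.4%), so at close range the class was not apart from that with all 4 other targets. Pol II was also farther, at a median of 66.0 kb (58.7 to 78.8 kb). For OGA peaks with SPT5 and TRIM28 and no Pol II the median was 18.7 kb (15.9 to 22.6 kb). Neither class touches Pol II by its rule. The rule does divide them by overlap with SPT5, which acts with Pol II, so this difference is a description only.

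Nearness to SPT5 made little difference within the class. The 93 members (17.2%) with SPT5 within 5 kb had a median OGA fold of 3.66 (3.33 to 4.03), the 228 at 5 to 50 kb had 3.86 (3.61 to 4.01), and the 219 farther off had 3.99 (3.72 to 4.18). Median TRIM28 folds in the same order were 3.89, 4.18 and 4.25, and TRIM28 widths were 408, 368 and 362 bp, with overlapping intervals. Spearman's rho between OGA fold and distance to SPT5 was 0.0807 over the 540 sites. The member nearest to SPT5, chr10:132800581-132800920, had an OGA fold of 8.66 and abutted an SPT5 peak with no base between. At chr19:7402734-7402962 and chr22:50645952-50646174, with SPT5 0.00700 and 0.0420 kb away, the OGA folds were 2.83 and 3.10. The farthest members, chr21:23888561-23888968, chr20:12034090-12034278 and chr1:49259670-49259843, lay 1452, 1379 and 1356 kb from SPT5, with OGA folds of 8.59, 3.11 and 3.25. The last of them was 3.86 kb from a Pol II peak. High and low OGA peaks thus occurred at either end of the range.

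The chromosomes of TRIM28-alone peaks with and without OGA were alike at the precision of 532 sites. The shares had overlapping intervals on 21 of 22 chromosomes, and the exception was chromosome 20, with 5.45% of the sites with OGA (29 sites, 3.82% to 7.72%) against 3.50% of those without (3.27% to 3.74%). It was 1 of 22 comparisons. Chromosome 19, which holds large clusters of KRAB zinc finger genes, had 3.57% with OGA (19 sites, 2.30% to 5.51%) and 3.35% without (3.13% to 3.58%). Against the other OGA peaks the class was lower on chromosome 19, with 3.70% of its 540 sites (2.41% to 5.65%) and 6.98% of the rest of the OGA list (5.93% to 8.19%). It was also lower on chromosome 11, at 3.15% (1.97% to 4.98%) and 5.96% (5.00% to 7.10%). These were 2 of 22 comparisons, and the intervals overlapped on the other 20 chromosomes. By the rule, most of the other OGA peaks overlap SPT5, Pol II or O-GlcNAc and the class does not, so this comparison is a description only. All TRIM28 peaks stood between these values on both, at 4.82% on chromosome 19 and 4.66% on chromosome 11.

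**Figure D5:**
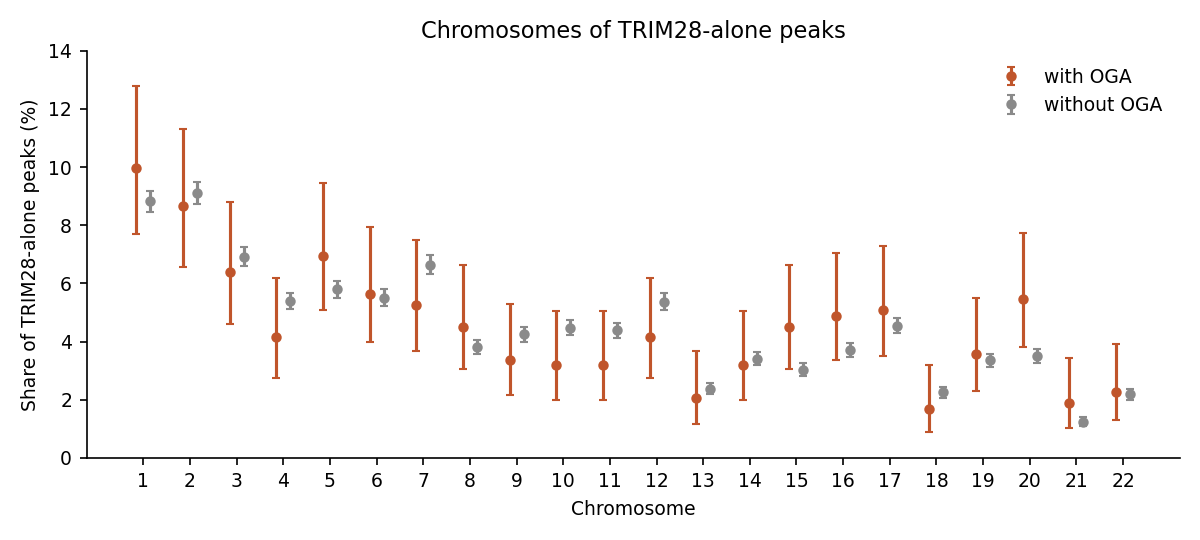
Share of TRIM28-alone peaks (y axis, %) on each of chromosomes 1 to 22 (x axis), with OGA (n = 532) and without (n = 23860); bars are 95% Wilson intervals. The intervals overlap on all chromosomes but 20, where the shares are 5.45% and 3.50%.

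The edge of the rule was thinly populated for the overlap with TRIM28. On the side of the exclusions, an SPT5 peak lay within 1 kb of 36 of the 540 members (6.67%). The overlap of OGA and TRIM28 peaks had a median of 219 bp (quartiles 186 and 261 bp), and the shortest overlaps were 36 bp at chr11:33754294-33754526, 39 bp at chr10:123429143-123429375 and 43 bp at chr2:122367974-122368296, with OGA folds of 4.52, 2.35 and 2.75. Just outside, among the OGA peaks that no list overlapped, those nearest to TRIM28 missed it by 39, 92 and 96 bp and had OGA folds of 2.15, 2.83 and 4.43. The weakest member by −log10 q, at 1.33, a site singled out after its value was seen, was chr3:197436153-197436345, with an OGA fold of 2.08 on a TRIM28 peak of 4.39. The widest members were chr16:85790520-85791528, at 1009 bp and 0.0870 kb from SPT5, and the sites on chromosomes 16 and 2 named above for their height, at 879 and 751 bp.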

How the data were processed

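Peak lists of ChIP-seq libraries for OGA, TRIM28, O-GlcNAc, SPT5 and Pol II in BJAB cells were used, 1 library each, grouped by sample title. Per the submitters' processing notes, bcl2fastq 2.17, Trimmomatic 0.30, Bowtie2 2.1.0 and the build hg19 were used. Neither the peak caller nor its control or threshold is known here. For each peak, the deposited files give a fold enrichment, which is a ratio to the authors' background, a −log10 q value, whose smallest values were between 1.3 and 1.33, and the summit position; these were used as the authors deposited them. No peaks overlapped within a list, and no read depth was analysed.

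Peaks on chromosomes 1 to 22 were compared. Overlap meant 1 bp or more, and distances are bases between peak edges. Shares have 95% Wilson intervals, and medians have 95% order-statistic intervals. A ratio of medians carries the interval of its first group only. Strata were deciles of TRIM28 fold enrichment, width or −log10 q, and stratified ratios are geometric means weighted by the peaks with OGA. No test was made, since no target has a replicate. Overlaps and distances matched bedtools 2.31.1, and ratios were tested on simulated data. The software was matplotlib 3.10.9, scipy 1.17.1, pandas 2.3.3 and numpy 2.4.6 under Python 3.11.15.

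Named sites are the 5 members highest by OGA, the 3 highest by TRIM28, the 3 widest and the 3 nearest and farthest by SPT5. Also named are the 3 at either side of the overlap rule and the 3 densest windows of 1 Mb, with a tied window on chromosome 16. The members, lists and alternatives were chosen with earlier results of these data known. The gene table and promoter sequences at hand are of another build, so genes, promoters and sequences of the sites were not analysed here.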

Additional observations from a re-analysis of the deposited data

Results flagged for a closer look

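Chromosome X was left out of the comparisons, and 16 of its 58 OGA peaks were overlapped by TRIM28 alone. They are listed here because they lie outside the data compared. The share, 27.6% (95% Wilson interval 17.8% to 40.2%), was not apart from the 21.6% on chromosomes 1 to 22. Their OGA fold enrichments ran from 2.76 to 10.4 with a median of 4.17, against 3.86 on chromosomes 1 to 22.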

How the results depend on the processing

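Of 74 alternatives over 8 results, 63 stayed within the interval of the main value (for the number of members, within 1.5 times), and none of the ratios whose interval lay apart from 1 changed direction. The strata of width and −log10 q, the class with SPT5 and TRIM28 as the only comparison and the summit rule for width were chosen after seeing the data. A −log10 q of at least 5 in the OGA and TRIM28 lists left 342 members by construction, and the settings tried gave 342 to 679. The ratio of TRIM28 fold enrichment with to without OGA, 1.03 (0.982 to 1.07), became 0.914 with that threshold in all lists, 0.910 with it in OGA and TRIM28, 0.829 within strata of width and 1.60 by −log10 q, so its direction is not settled; the cause was not tested. The ratio of TRIM28 width, 1.31, became 1.23 and 1.21 with the same thresholds and 1.21 within strata of −log10 q. Ratios of distance ran from 1.19 to 1.52 for SPT5 and from 1.27 to 1.53 for Pol II. With the threshold in OGA and TRIM28, the interval for SPT5 (0.952 at its lower end) reached below 1, as did that for Pol II with it in all lists (0.983). The ratio of OGA fold enrichment to other OGA peaks with TRIM28, 1.22, became 1.09 by −log10 q and 1.15 against the class with SPT5 and TRIM28, and the ratio of summit distance, 0.841, became 0.974 against that class. The share on chromosome 19 ran from 3.31% to 3.83%; without that chromosome it has no value. No paired analysis was possible because each target has 1 library. The OGA list is short, so TRIM28 peaks without OGA can hold OGA below its threshold, and the depth of the libraries limits every absence.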

Other observations

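Most OGA peaks with TRIM28 alone had no other member within 10 kb. Whether they grouped more or less than randomly placed sites was not tested. Another member lay within 10 kb of 36 of the 540 (6.67%, interval 4.85% to 9.09%). Of the 540 windows of 1 Mb that start at a member, 382 held no further member. These windows leave out members that lie before their start, so 382 is not the number of isolated members. The densest window, on chromosome 19 from 7291224 to 8262573, held 6 members among 11 OGA, 52 TRIM28, 62 SPT5 and 25 Pol II peaks, and the OGA folds of these members were 2.62 to 6.83. Windows on chromosome 3, from 197436153 to 197828436, and chromosome 7, from 97762615 to 98468226, held 5 members each. They were not alone in this, since a window on chromosome 16, from 85089078 to 85791528, also held 5. The window on chromosome 3 held 36 TRIM28 peaks, 16 of them free of Pol II, SPT5 and O-GlcNAc, beside 58 SPT5 and 9 Pol II peaks. The window on chromosome 7 held 50 TRIM28 peaks, 36 of them free of these targets, beside 24 SPT5 and 7 Pol II peaks.

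The 117 OGA peaks that no other list overlapped resembled the class in place and height. They lay a median of 30.9 kb from SPT5 (21.4 to 56.6 kb) and 79.8 kb from Pol II (42.9 to 132 kb), and a median of 11.4 kb from TRIM28 (5.69 to 16.3 kb). Their median width was 221 bp, against 228 bp with TRIM28 alone.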
